A study of Mus musculus with 36 samples.

Results

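Levels of mRNA were compared by RNA sequencing between mouse dendritic cells lacking LGP2 (KO, Dhx58-/-) and wild-type (WT) dendritic cells, 3 h after both had been transfected with 20 ng of PAMP RNA. PAMP RNA is the poly-U/UC RNA of hepatitis C virus, an agonist of the RNA sensor RIG-I. The comparison used 6 of the 36 libraries of the study, 3 of KO cells and 3 of WT cells, and set the levels reached by each genotype side by side without subtracting the levels of untreated cells. It covered 11853 of 24127 genes, those whose normalized count averaged 10 or more over all libraries. The cells were grown from the bone marrow of mice labelled C57BL/6 (C57BL/6J for the WT mice) with the growth factor GM-CSF, then selected for CD11c, a surface integrin that dendritic cells carry. Of the other groups, KO and WT mock cells at 3 h show the genotype difference without PAMP RNA, and KO and WT cells 6 h after PAMP RNA show what followed; each of these groups also held 3 libraries. Control cells are named mock-treated in one place of the labels and untreated in another.

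RIG-I (gene Ddx58) and MDA5 (gene Ifih1) are helicases that bind viral RNA in the cytosol and signal through the adaptor MAVS to the factors that switch on type I interferon genes. LGP2 is the third member of this helicase family; it binds RNA but lacks the domains that pass the signal on, and it is known both to assist MDA5 and to dampen RIG-I. Secreted interferon then acts through its receptor and STAT factors on a large set of interferon-stimulated genes, and inhibitors such as SOCS1 end that signal.

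The 6 libraries held 4740909, 7393760 and 8640929 reads in genes in KO cells and 8928580, 9520520 and 7601027 in WT cells, the first KO library being the shallowest of the series. Within a group the libraries correlated at 0.989 or more in KO cells and 0.993 or more in WT cells (Pearson, log2 scale). The labels speak of triplicates without saying whether they came from separate mice. The p-values therefore reflect only how the 36 libraries of the series spread within their 12 groups. Genotype and the source of the cells cannot be told apart. In bulk RNA, fewer cells of a type and less RNA per cell cannot be told apart either. Of all genes tested 12.7% were higher and 9.41% lower in KO cells (limma, adjusted p under 0.05). The counts of markers that follow are to be read against these shares. Of 13 conventional dendritic cell markers tested, 1 was higher and 5 were lower in KO cells, and their summed normalized count was 19793 to 20856 in KO libraries and 22745 to 23048 in WT libraries. Of 15 macrophage and monocyte markers, 4 were higher and 3 lower, with sums of 199565 to 230442 in KO and 228506 to 241860 in WT libraries. Among the few detected markers of plasmacytoid dendritic cells 0 of 5 were higher and 2 lower (sums of 2469 to 2578 in KO and 2435 to 2484 in WT libraries), of neutrophils 0 of 6 were called in either direction (4531 to 4757 and 4752 to 4941), of mast cells and basophils 1 of 3 was lower (130 to 162 and 154 to 166), and of eosinophils 2 of 2 were lower (2257 to 2475 and 2656 to 2821). Markers of T cells (3 tested; sums of 113 to 115 and 111 to 114), B cells (2; 293 to 358 and 322 to 370) and natural killer cells (1; 425 to 459 and 425 to 457) gave 0 calls. No marker of erythroid cells (1.13 to 8.86 and 3.62 to 8.48) or fibroblasts (18.7 to 19.5 and 8.15 to 31.2) reached the minimum. Among the markers, Cd3d, Cd3g, Ms4a1, Pax5, Ncr1, Prf1, Gzma, Fcer1a, Cma1 and Hba-a1 had no read in the 6 libraries. Other members of the same lists averaged above 2 normalized counts there. These were 5 markers of T cells, 3 of B cells, 2 of natural killer cells, 4 of mast cells and basophils and 1 of erythroid cells. The part that cell composition plays in the results below was not tested.

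Dhx58, the gene of LGP2 (chromosome 11, 100694884 to 100704271 on the minus strand of GRCm38), had normalized counts of 567, 614 and 603 in KO libraries and 1457, 1546 and 1428 in WT libraries. All KO libraries lay below all WT libraries. The log2 difference was -1.31 (SE 0.14, adjusted p = 4.16e-10), and reads of the gene were not absent from the KO libraries. In mock cells the order was the opposite, with 451 ± 71.7 in KO and 132 ± 14.8 in WT cells (SD, n = 3 each), a difference of 1.76 that goes against the label. A whole-gene count does not show which exons are read, so KO stands here for the libraries labelled so. Of 145 tested genes within 5 Mb of Dhx58, 18 were higher and 17 lower (24.1%), against 22.1% of all tested genes called in either direction. These 145 genes include Ccr7, Stat3, Stat5a and Stat5b, which are counted in gene lists below. Whether their differences are tied to their position was not tested.

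In all, 1505 genes were higher and 1115 lower in KO than in WT cells at an adjusted p under 0.05 (limma, Benjamini-Hochberg), which is 12.7% and 9.41% of the genes tested. The differences were small: the median size among called genes was 0.32 on the log2 scale, and 93 exceeded 1, 28 of them higher and 65 lower. The balance of directions depended on scaling: 57.4% of called genes were higher in KO cells with the deposited size factors, 46.3% after quantile normalization and 32.8% when libraries were scaled to equal totals. Of the 11853 genes tested, the groups did not overlap for 2443 with KO above WT and 1792 with KO below. In each direction these outnumber the called genes, so a lack of overlap alone says less than a call. Shares of a gene list below are to be read against the 12.7% higher and 9.41% lower of all genes, and the median over all genes was 0.01. The lists were chosen with earlier results of these data known, so an excess over these shares is a description and not a test.

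**Figure D1:**
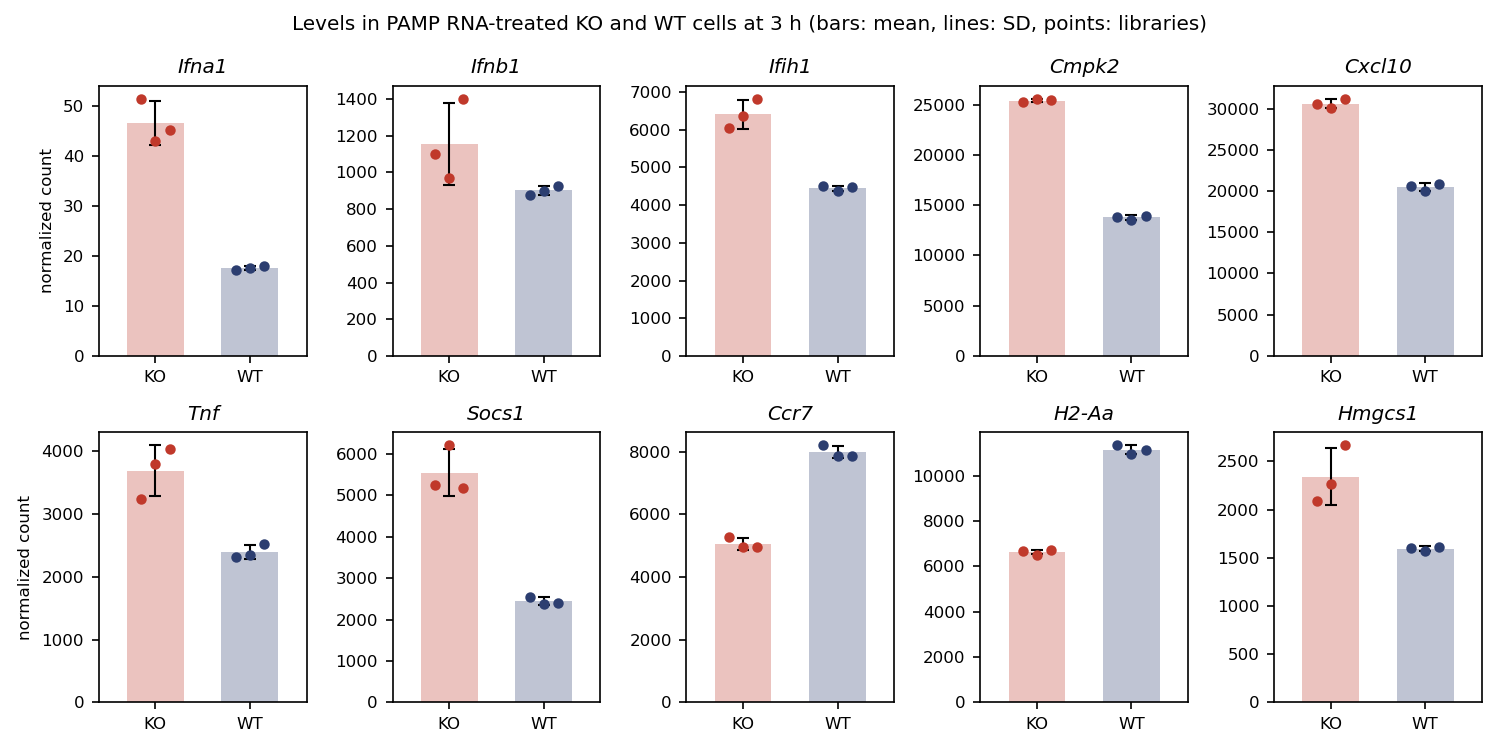
Normalized counts of 10 genes in KO (left, red) and WT (right, blue) cells 3 h after PAMP RNA; points are libraries, bars the mean and lines the SD of 3 libraries. KO libraries lie above WT libraries in every panel except Ccr7 and H2-Aa, where they lie below; the difference of Ifnb1 did not pass the test (adjusted p = 0.523).

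Of 11 type I interferon genes tested, the ligands of the pathway, 4 interferon alpha genes were higher in KO cells and 0 lower, with a median difference of 0.92 over the 11. Ifna1 had 51.5, 43.1 and 45.3 normalized counts in KO libraries and 17.2, 17.7 and 18 in WT libraries (log2 difference 1.35, SE 0.30, adjusted p = 0.000821). The 2 groups were far apart. Ifna9 was much scarcer, at 12.4, 9.08 and 26.6 in KO libraries and 2.72, 4.22 and 3.18 in WT libraries, with the third KO library well above the others (1.84, SE 0.46, adjusted p = 0.00228). Ifna5 averaged 78.2 ± 6.94 in KO and 40 ± 3.33 in WT cells (0.95, adjusted p = 0.0159), and Ifna2 203 ± 34.8 in KO and 106 ± 6.95 in WT cells (0.92, adjusted p = 0.00827). The Ifna5 call was lost at a pseudocount of 0.5 and without KO replicate 1 (0.90, adjusted p = 0.0516), WT replicate 1 or WT replicate 3, and the Ifna2 call without KO replicate 3 (0.81, adjusted p = 0.0519). None of these 4 genes had a read in mock cells at 3 h, so their mock difference is 0 for lack of reads. The test of the difference with PAMP RNA against that in mock cells called 0 of the 11 genes. Ifnb1, interferon beta, had 1100, 967 and 1401 in KO libraries and 879, 900 and 928 in WT libraries; every KO library was above every WT library, but the difference of 0.34 did not pass the test (SE 0.34, adjusted p = 0.523). It passed where the spread came from fewer groups or from recovered reads: adjusted p = 0.00394 with only the 6 libraries, 0.000338 in edgeR and 0.000752 in DESeq2. With edgeR, DESeq2 or quantile normalization 7 of the 11 genes were higher. Interferon alpha genes are close copies of each other and may hold each other's reads.

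Of 10 genes for interferon receptors and Janus kinases, the relays of the signal at the cell membrane, 4 were higher and 1 lower. Ifnar2, a chain of the type I interferon receptor, averaged 671 ± 7.02 in KO and 530 ± 10.8 in WT cells (0.34, SE 0.06, adjusted p = 2.31e-05). Ifnlr1, of the lambda interferon receptor, was lower at 20.5 ± 1.86 in KO and 36.1 ± 2.07 in WT cells (-0.79, adjusted p = 0.00107). The kinase genes Jak3 (0.46) and Tyk2 (0.17) were higher, Jak3 not without WT replicate 1 (0.33, adjusted p = 0.0672) and Tyk2 not under either other scaling or without WT replicate 1. Under either other scaling 2 of the 10 genes were higher and 2 lower. Among 7 STAT factors 3 were higher and 1 lower; quantile normalization gave 0 higher and 2 lower, and equal totals 2 lower. Stat2, the partner that binds DNA with IRF9, differed by 0.26 (adjusted p = 0.0138), a call lost after quantile normalization (0.15, adjusted p = 0.246), under equal totals (0.19, adjusted p = 0.0938), without WT replicate 1 (adjusted p = 0.0543) and without KO replicate 3 (adjusted p = 0.0644). Stat4, which transmits interleukin-12 and interferon signals, was lower at 62.2 ± 3.28 in KO and 128 ± 5.58 in WT cells (-1.03, SE 0.12, adjusted p = 1.49e-08). Stat4 differed in mock cells as well (-0.88).

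Among 29 genes of the RNA-sensing pathway 12 were higher and 1 lower, with a median of 0.11; quantile normalization gave 5 lower and equal totals 6 lower. Ifih1 (MDA5) had 6043, 6374 and 6819 in KO libraries and 4499, 4364 and 4472 in WT libraries, with no overlap (0.53, SE 0.08, adjusted p = 3.15e-06). Its mock difference was 0.14 and did not pass the test. Ddx58 (RIG-I) averaged 3983 ± 30.8 in KO and 2959 ± 18.6 in WT cells (0.43, SE 0.09, adjusted p = 0.000477), and its difference in mock cells was nearly equal (0.42, adjusted p = 0.00126). Tlr3, the endosomal sensor of double-stranded RNA, was higher by 0.58 (adjusted p = 0.000736) and Rnf135, a ubiquitin ligase that activates RIG-I, by 0.43 (adjusted p = 0.00102). The adaptor gene Mavs stood at 350 ± 6.87 in KO and 345 ± 5.6 in WT cells (0.02, SE 0.07, adjusted p = 0.889), and the groups overlapped.

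Interferon regulatory factors bind the promoters of interferon and interferon-stimulated genes, and 3 of 8 tested were higher and 1 lower (5 higher in DESeq2). Irf1, an activator induced by interferon, had 5894, 5964 and 6033 in KO libraries and 4129, 4110 and 4231 in WT libraries (0.52, SE 0.06, adjusted p = 6.2e-09). The groups were far apart relative to their spread, and the difference exceeded that in mock cells by 0.40 (adjusted p = 0.00283). Irf8, needed for dendritic cell development, was higher in KO cells with PAMP RNA (0.22, adjusted p = 0.00113) and lower in KO mock cells (-0.23, adjusted p = 0.00164), a change of 0.46. Irf2 was higher by 0.32 and Irf4 lower by a log2 difference of -0.38, the Irf4 difference in mock cells being -0.31. Irf7, the amplifier of interferon alpha, averaged 4025 ± 144 in KO and 2917 ± 147 in WT cells without overlap, a difference of 0.46 at the edge of the threshold (adjusted p = 0.0502) that passed in edgeR (adjusted p = 6.9e-06) and DESeq2 (adjusted p = 0.0279).

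Interferon-stimulated genes with antiviral roles were mostly higher in KO cells: 33 of 63 tested were higher and 1 lower, with a median of 0.28 and 56 of 63 above 0. The direction of the median held under the other scalings (0.17 and 0.22), but quantile normalization left 18 higher. Cmpk2, a mitochondrial nucleotide kinase, had 25220, 25547 and 25433 in KO libraries and 13845, 13516 and 13949 in WT libraries (0.88, SE 0.15, adjusted p = 1.93e-05). The 2 sets were tight and well separated. Rsad2 (viperin), its neighbour and an inhibitor of viral replication, averaged 57397 ± 3867 in KO and 35195 ± 1407 in WT cells (0.70, SE 0.14, adjusted p = 0.000122). Oas2, which senses double-stranded RNA and activates RNase L, averaged 1267 ± 53.3 in KO and 753 ± 50.1 in WT cells (0.75, adjusted p = 0.0018). Ifit1, which binds viral RNA caps, had 34560, 30434 and 31225 in KO libraries and 27406, 26158 and 26968 in WT libraries; the groups did not overlap, yet the difference of 0.25 failed the test (adjusted p = 0.268) and passed with only the 6 libraries (adjusted p = 9.72e-05). The member lower in KO cells was Ifitm1, a membrane protein that hinders viral entry, at 268 ± 24.4 in KO and 456 ± 14.4 in WT cells (-0.77, adjusted p = 5.67e-08); it was lower in mock cells too (-0.67). For the list as a whole 9 members were higher and 3 lower in mock cells, with a median of 0.04, and for 10 the genotype difference was larger with PAMP RNA than without it.

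Of 19 genes for guanylate-binding proteins and immunity-related GTPases, which attack the vacuoles of intracellular pathogens, 13 were higher in KO cells and 0 lower. All 19 differences were above 0 under the main and both other scalings, and the median was 0.44. Gbp4 had 3979, 4509 and 4893 in KO libraries and 2820, 2789 and 2794 in WT libraries (0.67, SE 0.11, adjusted p = 6.61e-06). Its order was turned round in mock cells, at 91 ± 11.2 in KO and 126 ± 17.1 in WT cells (-0.46, adjusted p = 0.00262), so that the difference with PAMP RNA exceeded that in mock cells by 1.13 (adjusted p = 2.29e-06). Gbp9 had 2399 ± 266 in KO and 1504 ± 55.6 in WT cells (0.67) and an excess over mock cells of 0.88 (adjusted p = 3.35e-06). Gbp11 averaged 158 ± 17.8 in KO and 62.5 ± 1.71 in WT cells (1.32, adjusted p = 0.0129), a call lost at a pseudocount of 0.5 and without KO replicate 2 (1.23, adjusted p = 0.0548). Iigp1 averaged 3919 ± 60.1 in KO and 1995 ± 145 in WT cells (0.98, adjusted p = 0.0328), and that call was lost when any of the 6 libraries was left out (adjusted p of 0.061 to 0.0936), with no filter, at a pseudocount of 0.5 and under both other scalings. Over the list, 7 members exceeded their mock difference. Genes of this family are alike in sequence, so single members are uncertain.

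Feedback inhibitors were led by Socs1, whose product shuts off signalling from interferon receptors. Its counts were 5253, 6211 and 5186 in KO libraries and 2548, 2372 and 2411 in WT libraries (1.18, SE 0.14, adjusted p = 8.41e-09). All KO libraries lay far above all WT libraries. In mock cells it stood at 78.1 ± 9.54 in KO and 73 ± 8.08 in WT cells (0.10), so the excess over mock cells was 1.08 (adjusted p = 0.0003). Of the 24 cytokine and kinase feedback inhibitors tested, 11 were higher and 5 lower, with a median of 0.09; equal totals gave 7 higher. Socs3, an inhibitor of interleukin-6 signalling, averaged 692 ± 37.4 in KO and 399 ± 33.9 in WT cells (0.79, adjusted p = 1.49e-08) and was higher in mock cells by 0.50. Cish was higher by 0.46 (adjusted p = 0.000141), and Dusp10, a phosphatase of stress kinases, by 0.57, a call lost without WT replicate 3, KO replicate 1 or KO replicate 3 (0.50 each; adjusted p of 0.0535 to 0.062).

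Promoters of 3 of these genes are shown because their interferon-stimulated response element, the site bound by IRF and STAT complexes, lies in the printed window. They are RefSeq sequences of GRCm38.p6 from 250 bases before to 50 after the gene start, 5′ to 3′ along the gene, and capitals mark GAAANNGAA on either strand. The regions are chr16:10785487-10785786 (minus strand) for Socs1, chr12:26456403-26456702 (minus strand) for Rsad2 and chr4:88849837-88850136 (plus strand) for Ifna1.
Socs1: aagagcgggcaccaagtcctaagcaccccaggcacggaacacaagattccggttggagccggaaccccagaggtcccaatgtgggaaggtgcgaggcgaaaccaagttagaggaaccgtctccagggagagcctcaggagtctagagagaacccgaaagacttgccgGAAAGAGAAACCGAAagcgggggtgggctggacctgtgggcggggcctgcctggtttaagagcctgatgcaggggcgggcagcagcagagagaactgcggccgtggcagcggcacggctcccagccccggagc
Rsad2: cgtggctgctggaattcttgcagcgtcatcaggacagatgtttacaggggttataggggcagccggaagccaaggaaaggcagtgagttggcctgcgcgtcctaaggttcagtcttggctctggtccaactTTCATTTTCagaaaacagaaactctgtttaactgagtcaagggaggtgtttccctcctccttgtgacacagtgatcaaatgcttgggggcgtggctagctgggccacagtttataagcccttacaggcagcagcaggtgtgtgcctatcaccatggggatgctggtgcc
Ifna1: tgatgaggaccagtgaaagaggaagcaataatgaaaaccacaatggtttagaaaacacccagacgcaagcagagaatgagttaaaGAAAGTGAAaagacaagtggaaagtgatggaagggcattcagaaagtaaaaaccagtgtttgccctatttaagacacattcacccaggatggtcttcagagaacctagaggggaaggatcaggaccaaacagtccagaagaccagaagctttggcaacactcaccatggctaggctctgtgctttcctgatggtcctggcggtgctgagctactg
Socs1 carries 2 overlapping matches, 83 and 77 bases before the start, Rsad2 1 match 119 bases before it on the opposite strand and Ifna1 1 match 165 bases before it. The motif occurred in 9.08% of the promoters of 8980 tested genes, in 12.4% of those higher in KO cells, in 8.21% of those lower, and in 15.3% of the 242 genes with a promoter whose difference was larger with PAMP RNA than in mock cells. The matching shares were 12.2%, 14.2%, 13.8% and 14.5% for the NF-kB motif and 6.25%, 7.69%, 7.02% and 9.92% for the AP-1 motif TGANTCA. For the CArG motif they were 1.49%, 1.61%, 2.02% and 1.24%, and for the hypoxia motif ACGTG 29.6%, 29.8%, 28.0% and 28.9%. A match describes letters in a window and is not a measured binding site.

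**Figure D2:**
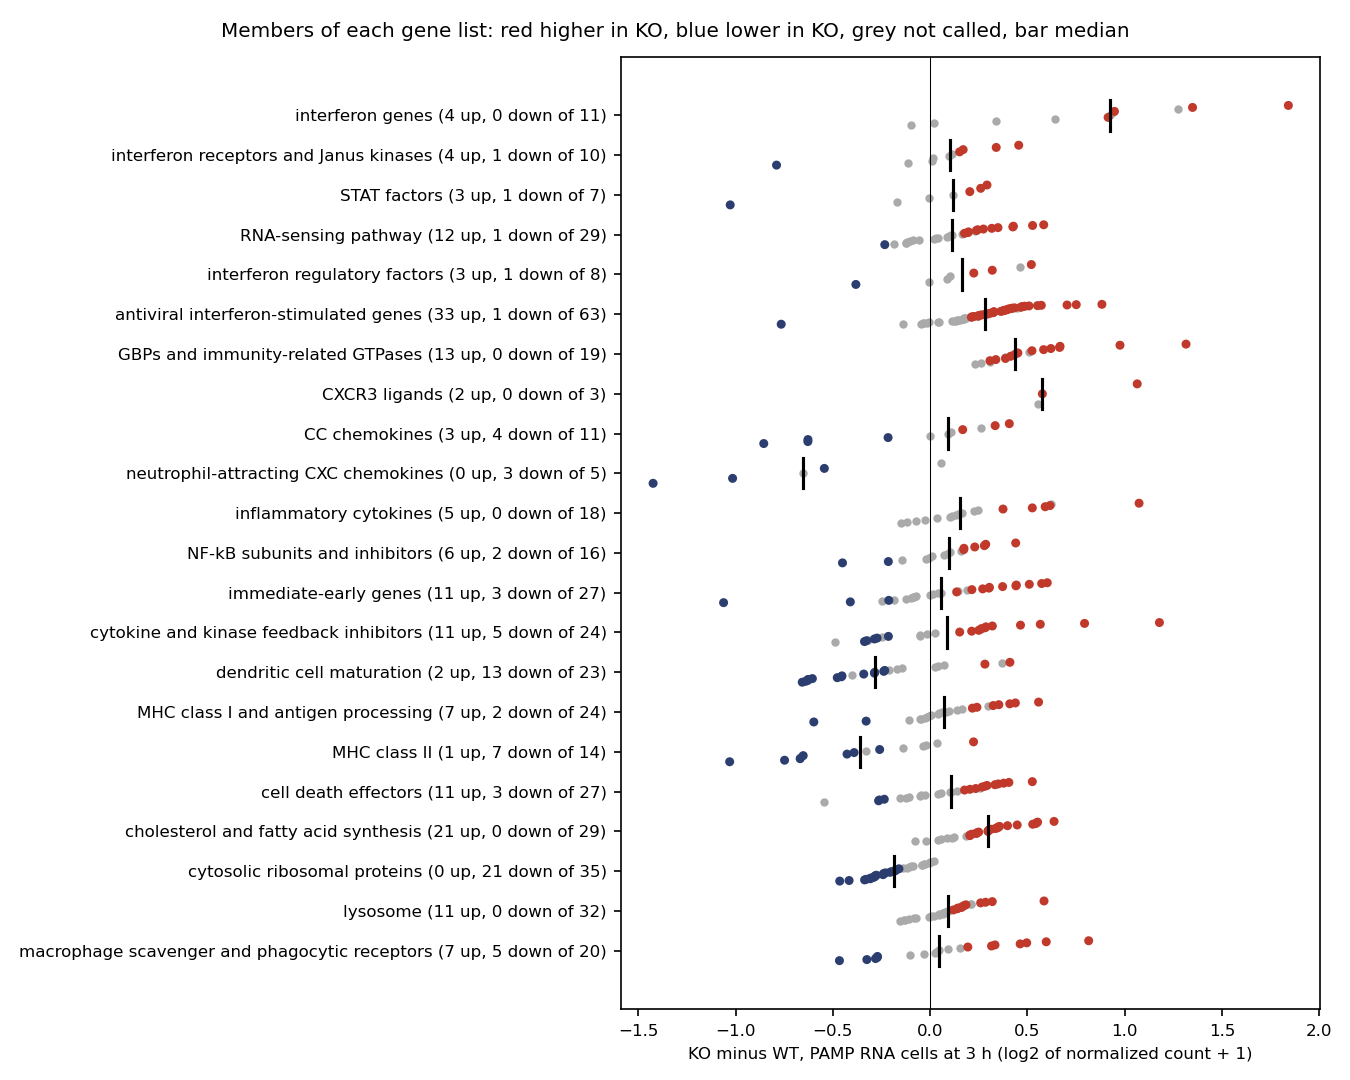
Log2 difference (KO minus WT, 3 h after PAMP RNA) of each tested member of 22 gene lists; red points are higher and blue points lower in KO cells at an adjusted p under 0.05, grey points were not called, and the bar is the median. The medians of the interferon genes (0.92) and the GTPases (0.44) lie to the right of 0 and those of the maturation (-0.28), MHC class II (-0.36) and ribosomal protein genes (-0.18) to the left.

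Chemokines split by kind. The CXCR3 ligands, which draw activated T cells and natural killer cells, were higher in 2 of 3 cases. Their median difference was 0.58, against 0.62 in mock cells, where 0 of 3 were called. The test of the difference with PAMP RNA against that in mock cells called 0 of 3. Cxcl10 had 30544, 30098 and 31178 in KO libraries and 20668, 20000 and 20874 in WT libraries, far apart, with a difference of 0.58 (SE 0.14, adjusted p = 0.00162) that lost its call after quantile normalization (0.37, adjusted p = 0.0718). Cxcl9 averaged 1982 ± 99.7 in KO and 950 ± 105 in WT cells (1.06, adjusted p = 0.0205), a call lost when any 1 of 4 libraries was left out (adjusted p of 0.0553 to 0.0705), with no filter and at a pseudocount of 0.5. Of 11 CC chemokines 3 were higher (1 after quantile normalization) and 4 lower. Ccl3, an attractant of monocytes, averaged 1540 ± 105 in KO and 1163 ± 104 in WT cells (0.41, adjusted p = 0.00064), whereas Ccl22 averaged 8372 ± 100 in KO and 12943 ± 431 in WT cells (-0.63, adjusted p = 5.54e-13). Ccl17, like Ccl22 a ligand of CCR4 on T cells, was lower by the same log2 difference of -0.63, and Ccl24, an attractant of eosinophils, by -0.85. These 3 differences were present in mock cells at -0.68, -0.54 and -0.75. Among 5 tested genes of a list drawn up for neutrophil-attracting CXC chemokines 0 were higher and 3 lower: Ppbp at 340 ± 7.29 in KO and 915 ± 52.6 in WT cells (-1.42), Cxcl3 (-1.02) and Pf4 (-0.54). All 3 were also lower in KO mock cells. Pf4 is not a classical attractant of neutrophils.

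Of 18 inflammatory cytokine genes 5 were higher and 0 lower, with a median of 0.16; 8 were higher in edgeR and in DESeq2 and 9 with only the 6 libraries. Tnf had 3239, 3790 and 4026 in KO libraries and 2315, 2349 and 2521 in WT libraries, without overlap (0.62, SE 0.08, adjusted p = 3.35e-08). Its family members Tnfsf15 (0.59, adjusted p = 1.24e-05) and Tnfsf10 (0.53, adjusted p = 0.00353), which encodes the death ligand TRAIL, were higher too. Il27, a cytokine subunit made by activated dendritic cells, averaged 220 ± 16.6 in KO and 105 ± 14.3 in WT cells (1.07, adjusted p = 0.0171), lost with no filter, without KO replicate 2 and without WT replicate 2 (0.98, adjusted p = 0.0719 for the last). Il6 had 306, 390 and 374 in KO libraries and 231, 231 and 229 in WT libraries. Its groups did not overlap, its difference of 0.62 failed the test (adjusted p = 0.128), and it passed in edgeR (adjusted p = 5.98e-06), in DESeq2 and with only the 6 libraries. Il12b, a subunit of interleukin-12, stood at 127 ± 12.8 in KO and 117 ± 4.14 in WT cells with overlap (0.12, adjusted p = 0.713). In mock cells it had been lower, at 37.9 ± 9.02 in KO and 71.8 ± 12.1 in WT cells (-0.92), and the change between the 2 differences passed the test (1.03, adjusted p = 0.0156).

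Of 16 NF-kB subunits and inhibitors 6 were higher and 2 lower, and scaling reduced the 6 to 2 (quantile) or 3 (equal totals). Tnfaip3 (A20), an enzyme that ends NF-kB signalling, averaged 3200 ± 210 in KO and 2621 ± 61 in WT cells (0.29, adjusted p = 0.000399). The atypical inhibitor Bcl3 was higher by 0.44 (adjusted p = 0.000115) and Nfkbiz by 0.28 (adjusted p = 0.0408, lost with no filter, under both other scalings and when any 1 of 4 libraries was left out), while the adaptor Traf1 was lower (-0.45) as in mock cells (-0.61). Of 27 immediate-early genes 11 were higher and 3 lower (5 lower under equal totals), and their median of 0.05 turned to -0.02 after quantile normalization and -0.01 under equal totals. The transcription factor gene Egr1 averaged 1179 ± 150 in KO and 788 ± 36.4 in WT cells (0.57, adjusted p = 5.23e-06), with an excess over mock cells of 0.77 (adjusted p = 0.000107), and Egr3 followed it (0.51; excess 0.71). Klf2 was higher by 0.60, its mock difference being 0.93. Fosl1 was lower (-1.06, adjusted p = 0.0134) on few counts, 4.82 ± 2 in KO and 11.4 ± 4.85 in WT cells, and its groups overlapped. That call was lost with only the 6 libraries (adjusted p = 0.104), in DESeq2 (adjusted p = 0.0513) and without WT replicate 1 or 2 or KO replicate 2 or 3 (adjusted p of 0.0523 to 0.121).

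Genes of dendritic cell maturation were mostly lower in KO cells, 13 of 23 with 2 higher, with a median of -0.28. Ccr7, the receptor that leads mature dendritic cells to lymph nodes, lies within 5 Mb of Dhx58. It had 5285, 4957 and 4948 in KO libraries and 8203, 7879 and 7865 in WT libraries (-0.66, SE 0.05, adjusted p = 4.77e-13). All KO libraries lay below all WT libraries. Cd83, a maturation marker, averaged 2289 ± 40 in KO and 3566 ± 64.7 in WT cells (-0.64, adjusted p = 3.53e-11). The mock differences were -0.72 and -0.62. In mock cells 0 members were higher and 19 lower, and 13 members were lower in both. The costimulatory genes did not move together. Cd86 was lower (-0.23, adjusted p = 0.0121; -0.21 without KO replicate 3 or WT replicate 1, both not called), while Cd40 had 1462, 1423 and 1377 in KO libraries and 1139, 1051 and 1113 in WT libraries. The Cd40 groups did not overlap, the difference of 0.37 missed the threshold (adjusted p = 0.0611), and it exceeded the mock difference of -0.55 by 0.92 (adjusted p = 0.00481).

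MHC class II genes, which present peptides to CD4 T cells, were lower: 7 of 14, with 1 higher and a median of -0.36. H2-Aa had 6672, 6526 and 6720 in KO libraries and 11347, 10962 and 11142 in WT libraries (-0.75, SE 0.05, adjusted p = 1.21e-15). H2-Eb1 (-0.67), H2-Ab1 (-0.65) and the scarce H2-Eb2 (-1.03) were lower as well. Mock cells gave 0 higher and 8 lower, 6 of them the same genes, and for H2-Aa the mock difference was -0.72. Of 24 genes of MHC class I and antigen processing 7 were higher and 2 lower. The median of this list was 0.07, and 0.006 after quantile normalization and 0.004 under equal totals. Members above 0 went from 16 to 12 under either. Nlrc5, the activator of class I genes, averaged 2110 ± 102 in KO and 1433 ± 69.6 in WT cells (0.56, adjusted p = 2.6e-05) with a mock difference of 0.00 that was not called. The peptide-loading gene Tapbp was higher by 0.41 and the class I-like H2-T24 by 0.44, while H2-Q7 was lower (-0.60), as in mock cells (-0.50). Class I genes share sequence, so single members are uncertain.

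Of 29 genes of cholesterol and fatty acid synthesis 21 were higher and 0 lower, with a median of 0.30. Hmgcs1, an early enzyme of cholesterol synthesis, had 2093, 2265 and 2665 in KO libraries and 1605, 1567 and 1609 in WT libraries, without overlap (0.55, SE 0.05, adjusted p = 9.04e-11). Insig1, the sterol-regulated brake on the pathway, was higher by 0.54 and the sterol reductase gene Hsd17b7 by 0.64. Mock cells gave 21 higher, 0 lower and a median of 0.27, and 19 genes were higher in both. No member's difference with PAMP RNA passed the test against its mock difference (0 of 29).

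Cytosolic ribosomal protein genes were lower, 21 of 35 with 0 higher, by a median of -0.18. Rpsa averaged 9534 ± 727 in KO and 11960 ± 498 in WT cells (-0.33, adjusted p = 5.75e-05) and Rpl30 1055 ± 71.7 in KO and 1455 ± 68.7 in WT cells (-0.46). In mock cells 4 were lower. Of 32 lysosomal genes 11 were higher and 0 lower, but quantile normalization gave 4 higher and 5 lower and equal totals 4 and 4, so no direction is given for the list. Ctsc, a protease that activates granule enzymes, stood out of it at 16217 ± 125 in KO and 10805 ± 144 in WT cells (0.59, SE 0.04, adjusted p = 4.13e-14), exceeding its mock difference by 0.38. Of 20 macrophage scavenger and phagocytic receptors 7 were higher and 5 lower, and their median of 0.04 turned to -0.04 after quantile normalization and -0.02 under equal totals. Mertk, which clears apoptotic cells, averaged 1143 ± 33.3 in KO and 756 ± 47.1 in WT cells (0.60, adjusted p = 2e-09) with a mock difference of -0.04 that was not called. Mrc1 (0.50) and Cd163 (0.82) were higher and Cd36 lower (-0.47), each in the same direction as in mock cells.

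Of 27 cell death effectors 11 were higher and 3 lower, among them Zbp1, a sensor of Z-form nucleic acid (0.41, adjusted p = 0.000422), whose mock difference of 0.02 was not called. In the remaining lists, 4 of 34 hypoxia and glycolysis genes were higher and 4 lower, 5 of 26 mitosis genes higher and 0 lower, 1 of 32 DNA replication genes higher and 1 lower, and 5 of 20 genes of the integrated stress response higher and 3 lower. Of 16 heat shock protein genes 0 were higher and 4 lower, among them the chaperone gene Hsp90aa1 (-0.31), and of 29 genes of oxidative phosphorylation 0 were higher and 1 lower. Equal totals gave 2 higher and 12 lower hypoxia genes, 8 lower genes of oxidative phosphorylation, 3 higher and 2 lower mitosis genes, and 2 higher and 5 lower genes of the integrated stress response. Quantile normalization gave 2 higher genes in the hypoxia, mitosis and stress response lists, 7 lower hypoxia genes and 4 lower genes of oxidative phosphorylation, while edgeR called 2 and DESeq2 1 of the hypoxia genes lower.

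**Figure D3:**
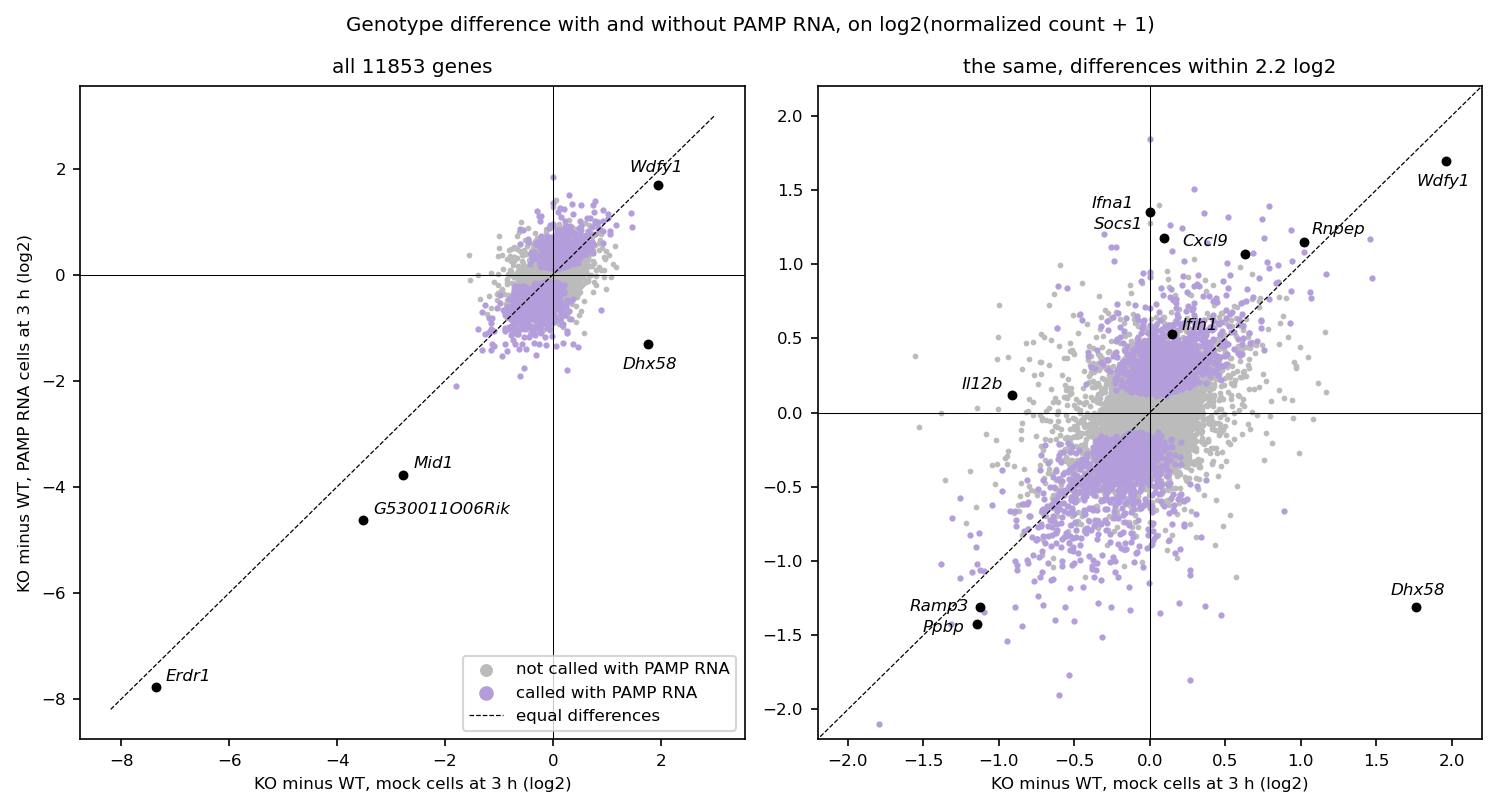
Log2 difference KO minus WT of each of 11853 genes with PAMP RNA (vertical) against mock cells (horizontal) at 3 h, all genes on the left and the centre enlarged on the right; purple genes were called with PAMP RNA. Erdr1 and Wdfy1 lie near the line of equal differences, Mid1 and G530011O06Rik below it at the lower left, Socs1 and Ifna1 lie above 0 near the vertical axis, and Dhx58 lies alone at the lower right.

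The same genotypes were compared in mock cells, which share no library with the cells above. There 8.22% of genes were called, 436 higher and 538 lower. Of the genes called with PAMP RNA 623 were called in mock cells in the same direction (300 higher, 323 lower), which is 23.8% of the PAMP RNA calls and 64.0% of the mock calls, and 24 in the opposite direction. The 2 sets of log2 differences correlated at r = 0.54 across genes (Spearman 0.46), which describes genes and not replicates. A test of the difference between both comparisons called 3.14% of genes, 306 larger and 66 smaller with PAMP RNA. Equal totals turned that balance to 144 larger and 153 smaller, and quantile normalization gave 155 and 87.

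Several of the genes with large differences differed in mock cells too. Erdr1, a gene of the region where X and Y pair, had 0 reads in the 3 KO libraries and 714 in the 3 WT libraries (228, 235 and 195 normalized counts), at least 180-fold lower in KO cells if the KO group is set at a floor of 3 reads in all. The mock libraries held 0 reads in KO and 674 in WT cells. Mid1, a ubiquitin ligase gene on chromosome X (169685199 to 170005736), had 42.6, 34 and 20.7 in KO libraries and 433, 439 and 440 in WT libraries (-3.77, SE 0.22, adjusted p = 5.24e-18). G530011O06Rik lies within Mid1 on the other strand (169975043 to 169978917), and without strand information reads of both overlap. It averaged 20.6 ± 5.56 in KO and 520 ± 32.6 in WT cells (-4.63). Wdfy1, whose product takes part in Toll-like receptor signalling, was higher in KO cells with 498, 528 and 568 in KO libraries and 151, 169 and 170 in WT libraries (1.70, SE 0.08, adjusted p = 4.74e-21; 1.96 in mock cells). Rnpep, an aminopeptidase gene, was higher by 1.15 (1.02 in mock cells). Nnt, a mitochondrial proton pump gene of which C57BL/6J mice are known to carry a deleted form, averaged 373 ± 25.8 in KO and 176 ± 5.79 in WT cells (1.08; 1.02 in mock cells). Plxnb2 (1.02) and Gm14548 (1.17) were higher, and Mpp7 (-1.34), Ramp3 (-1.31), C1qtnf6 (-1.11), Tcf7 (-1.06), H2-M2 (-1.02) and Gm13546 (-1.02) lower, each with a called mock difference of the same sign.

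Others of the 15 largest rises and falls had few reads in mock cells. Pydc3, a gene of the interferon-inducible pyrin-domain family, had 259, 252 and 283 in KO libraries and 753, 757 and 807 in WT libraries (-1.54, adjusted p = 0.00249), while its mock difference was not called (-0.95). Ch25h, which makes the antiviral oxysterol 25-hydroxycholesterol, averaged 1039 ± 92.9 in KO and 469 ± 20.7 in WT cells (1.14, SE 0.27, adjusted p = 0.00157). Serpina3f, a protease inhibitor gene, averaged 666 ± 56.9 in KO and 307 ± 16.4 in WT cells (1.11, adjusted p = 0.00589). The transcription factor genes Lhx2 (1.34, adjusted p = 0.0114; not called without KO replicate 2) and Pou3f1 (1.39, adjusted p = 0.0187; not called at a pseudocount of 0.5 or when any 1 of 4 libraries was left out) were also higher, on 121 ± 20.9 and 86 ± 13.1 counts in KO and 47.2 ± 7.37 and 32.1 ± 4.79 in WT cells. Their mock differences were not called.

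**Figure D4:**
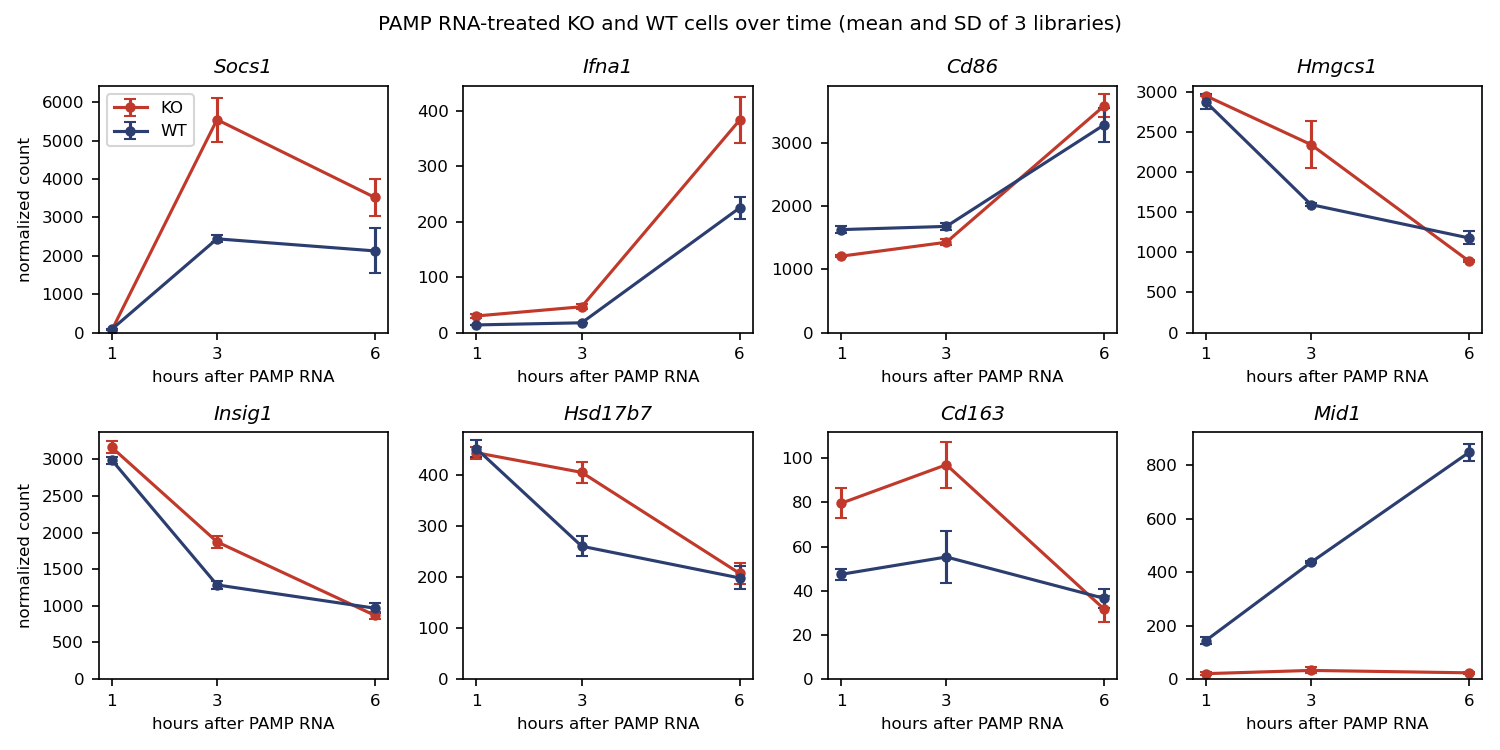
Mean normalized count with SD of 3 libraries in KO (red) and WT (blue) cells 1, 3 and 6 h after PAMP RNA. The KO means of Socs1 and Ifna1 lie above the WT means at 3 and 6 h, the KO and WT lines of Hmgcs1, Insig1 and Cd163 cross between 3 and 6 h, and the WT mean of Mid1 is larger at each later time.

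By 6 h some of these differences had changed. A test of the KO minus WT difference at 6 h against that at 3 h, both with PAMP RNA, called 1.49% of genes, 83 upward and 94 downward. Cholesterol synthesis accounted for 14 of the downward calls, out of 29 genes, with a median change of -0.32. Hmgcs1 stood at 891 ± 11.5 in KO and 1179 ± 80.9 in WT cells at 6 h, against 2341 ± 294 in KO and 1594 ± 23.6 in WT cells at 3 h. The order of the genotypes was turned round between the 2 times. Socs1 was 3521 ± 472 in KO and 2129 ± 585 in WT cells at 6 h, a change of -0.42 in the difference that did not pass the test (adjusted p = 0.317). Ifna1 reached 383 ± 41.3 in KO and 225 ± 19.7 in WT cells, with no called change in the difference (-0.58, adjusted p = 0.578).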

How the data were processed

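RNA of GM-CSF-cultured, CD11c-purified dendritic cells was sequenced as single reads after SMARTer amplification and Nextera XT library preparation, per the labels' protocols; these kits do not mark the strand. TopHat, Cufflinks and DESeq2 with the genome GRCm38 (mm10) are named in the submitters' processing notes; no source used here gives versions, roles or the annotation. Each deposited value is a signal, the read count of a gene that the authors divided by the size factor of its library, as the values themselves show. All values of a library (100%) were whole multiples of 1 step within 0.01 read, so whole reads were recovered; the 36 libraries held 4740909 to 14255730 reads. Libraries of a group differed by more than sampling noise (chi-square per degree of freedom of 1.31 or more). Each library was counted as 1 replicate, but this spread does not show whether the libraries came from separate mice or cultures.

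The comparisons used log2(normalized count + 1), which understates folds of scarce genes, for the 11853 genes with a mean of at least 10 (Serpine2 at 10.001 was just inside and Hist1h1d at 9.991 just outside). limma 3.58.1 (R 4.3.3) with a mean-variance trend was fitted to the means of all 12 groups, and a gene was called at a two-sided Benjamini-Hochberg adjusted p under 0.05 over all genes tested. Because all groups set the spread, genes that vary where they are scarce, such as Ifnb1 in mock cells, get a wide error. The spread of counts limits precision to what 3 libraries per group allow. Floors cover counting error only. The model was tested on simulated data. edgeR 4.0.16 and DESeq2 1.42.0 on recovered reads, other pseudocounts, filters and scalings, a fit of the compared groups alone, the replicate block and leaving out each library were the alternatives.

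The members and the gene lists were chosen with earlier results of these data known. Named genes are from Dhx58, the 15 largest called rises and 15 largest called falls without overlap and with a mean of at least 50, up to 4 called members of each list (2 where fewer than 2 were called), and a fixed panel; 134 genes met that rule and a part of them is printed; some genes are not reported here. The main fit took the libraries as unpaired. Deviations of same-numbered KO and WT libraries correlated at 0.067, -0.0078 and 0.055 with PAMP RNA. These values show little shared deviation but cannot show whether the libraries were handled in pairs. Positions are from GENCODE M21 on GRCm38 (11308 genes matched) and promoters from RefSeq (8980 genes matched).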

Additional observations from a re-analysis of the deposited data

Results flagged for a closer look

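The test of the KO minus WT difference at 6 h against 3 h, both with PAMP RNA, called 177 genes, and 8 of the genes named here are among them. Hmgcs1 changed by -0.95 (SE 0.08, adjusted p = 4.68e-12), Insig1 by -0.70 (adjusted p = 9.11e-08) and Hsd17b7 by -0.57 (adjusted p = 0.00463), all genes of the sterol pathway that were higher in KO cells at 3 h. The scavenger receptor gene Cd163 changed by -1.03 (adjusted p = 0.00457); it stood at 31.7 ± 5.87 in KO and 36.6 ± 4.32 in WT cells at 6 h, and at 97.1 ± 10.5 in KO and 55.3 ± 11.8 in WT cells at 3 h (SD, n = 3 each). Pole, a DNA polymerase subunit gene, changed by -0.80 (adjusted p = 0.00785) and Bcl3 by -0.57 (adjusted p = 0.00498). Mid1 changed by -1.37 (adjusted p = 0.0127), with 23.4 ± 4.42 in KO and 849 ± 31.5 in WT cells at 6 h, against 32.5 ± 11.1 in KO and 437 ± 3.68 in WT cells at 3 h. Cd86 changed by 0.36 (adjusted p = 0.0478), with 3588 ± 184 in KO and 3287 ± 266 in WT cells at 6 h against 1429 ± 43.5 in KO and 1680 ± 50.3 in WT cells at 3 h.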

How the results depend on the processing

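For KO minus WT with PAMP RNA at 3 h, no alternative reversed the direction of a named gene that it or the main test called. The signs of genes called by neither were not compared. Scaling to equal total reads gave 896 higher and 1832 lower genes with PAMP RNA, 144 and 153 for the difference from mock cells, and 193 lower for 6 h against 3 h; quantile normalization gave 155 higher for the difference from mock cells and 52 higher for 6 h against 3 h. The median of all genes moved to -0.05 under equal totals, against 0.01. No filter on low values gave 43 lower for the difference from mock cells. For 6 h against 3 h, edgeR called 48 higher and 46 lower, and the compared libraries alone 59 lower. Leaving out 1 library gave 1162 to 1414 higher and 820 to 998 lower genes with PAMP RNA, 262 to 413 higher and 400 to 539 lower in mock cells (262 higher without KO replicate 2 or WT replicate 3), 196 to 350 higher and 32 to 67 lower for the difference from mock cells (203 higher without WT mock replicate 2 and 196 without KO PAMP RNA replicate 3; 42, 34 and 35 lower without WT mock replicates 1, 2 and 3, 32 and 40 without WT PAMP RNA replicates 1 and 2, and 41 without KO mock replicate 3), and 40 to 100 higher and 54 to 126 lower for 6 h against 3 h (42, 40 and 51 higher without WT replicates 1, 2 and 3 at 3 h, 47 without KO replicate 1 and 49 without WT replicate 2 at 6 h; 54 lower without WT replicate 2 at 3 h). In all, edgeR called 2643 genes and DESeq2 2352 with PAMP RNA, and 2415 and 2220 of them were called by limma in the same direction. The replicate block gave 1531 higher and 1112 lower genes with PAMP RNA and 299 and 72 for the difference from mock cells. Whether same-numbered libraries were handled in pairs is not known. Of 124 named genes that were called, 30 lost the call in at least 1 alternative, and 5 not called passed in one. Depth limits scarce genes such as Ifna9.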
